A study of Mus musculus with 6 samples.

Results

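RNA sequencing of mouse cerebral cortex was examined for 9 genes that mark the projection neurons of the striatum, the forebrain nucleus that lies beneath the cortex. The genes were Drd1, Drd2, Adora2a, Ppp1r1b, Rgs9, Penk, Tac1, Pdyn and Gpr6. They were chosen by symbol, with their levels in these libraries already known, as a check of what tissue each dissection held, and all 9 were found among 47728 genes counted. The levels of the 9 genes are therefore given as a description, and where the fit over all genes is quoted for them its counts support nothing. The series has 3 FAD5x libraries and 3 libraries of C57BL/6 mice labelled Control, all from flash frozen cortex. FAD5x is an Alzheimer's disease mouse model known for human transgenes with familial disease mutations that are expressed from a neuronal Thy1 promoter. Age and sex are not given in the labels, nor whether each library came from its own animal, so n counts libraries, and p-values and errors measure the spread between libraries, part of which may be technical.

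Projection neurons make up most of the striatum, use GABA as their transmitter and fall into the direct and the indirect pathway. Direct-pathway neurons carry the dopamine receptor Drd1 and make the peptides encoded by Tac1 and Pdyn, whereas indirect-pathway neurons carry Drd2, Adora2a and Gpr6 and make the peptides encoded by Penk. Ppp1r1b and Rgs9 act in both. The cortex is not free of these transcripts: deep-layer neurons can express Drd1 and Ppp1r1b, and subsets of cortical interneurons make Penk, Tac1 or Pdyn.

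Between 17363946 and 24137936 reads were counted per library. Levels are given in CPM, counts scaled to library depth, with the trimmed mean of M values (TMM) as a further scaling factor of 0.913 to 1.07. Slc17a7, the vesicular glutamate transporter that defines cortical excitatory neurons, was present at 1047, 1676 and 1143 CPM in the FAD5x libraries, against 1016, 1282 and 1505 CPM in the Control libraries. FAD5x replicates 1 and 2 have related library names, and the labels do not say whether they share an animal, so the FAD5x libraries may come from fewer than 3 animals. Y-linked genes held 3124 counts in Control replicate 1 and Xist 3, whereas Xist had at least 10346 counts and Y-linked genes at most 9 in each of the other 5 libraries. Control replicate 1 is therefore not from the animal of another library. By these counts Control replicate 1 was male and the other 5 libraries female. Sex was thus not balanced between the groups, and the tests of FAD5x against Control do not account for it.

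The promoters of 4 markers are shown because Drd1 and Tac1 belong to direct-pathway neurons and Drd2 and Gpr6 to indirect-pathway neurons, and all 4 stood high in the same library. Each sequence is the 250 bases before the RefSeq start, 5′ to 3′ on the strand of the gene, in build GRCm38.p6, which is not the build of the counts. They lie at chr13:54055659-54055908 (minus strand, the upstream of 2 listed starts) for Drd1, chr9:49340153-49340402 (plus strand) for Drd2, chr6:7554811-7555060 (plus strand) for Tac1 and chr10:41072291-41072540 (minus strand) for Gpr6. Capitals mark the cAMP response element TGACGTCA and its core TGACG, searched on both strands; the full element contains the core on each strand.
Drd1: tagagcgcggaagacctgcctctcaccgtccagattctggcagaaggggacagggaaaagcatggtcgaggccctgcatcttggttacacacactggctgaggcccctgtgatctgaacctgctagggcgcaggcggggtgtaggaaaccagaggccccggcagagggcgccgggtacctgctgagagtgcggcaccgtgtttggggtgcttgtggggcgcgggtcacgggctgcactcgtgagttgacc
Drd2: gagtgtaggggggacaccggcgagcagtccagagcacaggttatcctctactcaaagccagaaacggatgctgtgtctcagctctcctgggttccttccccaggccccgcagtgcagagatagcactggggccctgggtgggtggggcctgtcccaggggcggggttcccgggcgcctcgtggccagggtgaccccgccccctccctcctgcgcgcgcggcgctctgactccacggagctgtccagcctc
Tac1: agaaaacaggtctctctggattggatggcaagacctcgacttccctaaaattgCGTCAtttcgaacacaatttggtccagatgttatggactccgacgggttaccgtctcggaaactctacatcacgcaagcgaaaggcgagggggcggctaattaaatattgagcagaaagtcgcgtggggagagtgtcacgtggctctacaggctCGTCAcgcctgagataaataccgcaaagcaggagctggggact
Gpr6: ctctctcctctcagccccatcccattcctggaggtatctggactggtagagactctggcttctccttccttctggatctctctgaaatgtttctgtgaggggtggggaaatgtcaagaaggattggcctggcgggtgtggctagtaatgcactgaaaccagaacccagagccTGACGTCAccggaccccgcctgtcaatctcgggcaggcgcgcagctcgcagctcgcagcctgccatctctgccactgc
The Gpr6 promoter held 1 full element, which began 78 bases before the start, and the Tac1 promoter held the core at 197 and at 43 bases before the start. Neither motif was found in these windows of Drd1 or Drd2, nor in those of Rgs9 and Pdyn, and Adora2a, Ppp1r1b and Penk were not matched in the promoter table. Of 32851 windows of the same length 1.55% held the full element and 17.8% the core, so the core is common. These matches describe the letters only.

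Among the receptors, all of which couple to G proteins, Drd2 stood furthest from the rest in FAD5x replicate 1. Drd2 (ENSMUSG00000032259), the dopamine receptor that lowers cAMP in indirect-pathway neurons, was at 49.0, 1.41 and 1.36 CPM in FAD5x replicates 1, 2 and 3, against 1.16, 1.74 and 1.90 CPM in the Control replicates of those numbers. FAD5x replicate 1 was 25.8-fold above the next highest library, Control replicate 3, and the other FAD5x libraries lay inside the Control range. The 5 libraries other than FAD5x replicate 1 held only 21 to 34 Drd2 counts each, so their order is within counting error: the 95% Poisson interval was 0.716 to 1.77 CPM in the lowest and 1.32 to 2.66 CPM in the highest. Such intervals cover counting error only. Drd1 (ENSMUSG00000021478), the dopamine receptor that raises cAMP in direct-pathway neurons, was at 70.6, 9.25 and 3.45 CPM in FAD5x, against 3.85, 4.72 and 9.0 CPM in Control. Drd1 was 7.63-fold higher in FAD5x replicate 1 than in FAD5x replicate 2, and FAD5x replicate 2 and Control replicate 3 formed a second pair above the remaining 3 libraries. Their intervals, 7.99 to 10.7 CPM for FAD5x replicate 2 and 7.66 to 10.5 CPM for Control replicate 3, overlapped each other and not those of the remaining 3 libraries.

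Adora2a (ENSMUSG00000020178), the adenosine receptor that opposes Drd2 in the same neurons, was at 82.4, 2.91 and 2.09 CPM in FAD5x, against 7.32, 5.45 and 8.11 CPM in Control. The level of FAD5x replicate 1 was 10.2-fold that of Control replicate 3, whereas FAD5x replicates 2 and 3 lay below all Control libraries. Gpr6 (ENSMUSG00000046922), an orphan receptor with constitutive activity in indirect-pathway neurons, was at 26.8, 0.242 and 1.25 CPM in FAD5x, against 1.43, 2.02 and 2.07 CPM in Control. FAD5x replicate 1 held 651 Gpr6 counts, against 5 in FAD5x replicate 2 and 24 to 37 in the others, and its level was 13.0-fold above the next highest library. The level in FAD5x replicate 2, with an interval of 0.0787 to 0.565 CPM, was the lowest of the 6 and its interval lay below those of the others.

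The 2 signalling proteins shared by both pathways were high in the same library. Rgs9 (ENSMUSG00000020599), a regulator that speeds the shut-off of G proteins at dopamine receptors, was at 172, 12.2 and 22 CPM in FAD5x, against 14.0, 15.1 and 19.3 CPM in Control. Rgs9 was 7.80-fold higher in FAD5x replicate 1 than in the next library, FAD5x replicate 3, and the other 5 libraries lay within 1.81-fold of each other. Ppp1r1b (ENSMUSG00000061718), the phosphatase inhibitor through which dopamine and cAMP act in these neurons, was at 400.3, 138 and 52.9 CPM in FAD5x, against 43.8, 37.5 and 64.3 CPM in Control. Here FAD5x replicate 1 was 2.90-fold above FAD5x replicate 2, which was itself above all Control libraries. The annotated exons of Ppp1r1b overlap by 460 bases with 1700003D09Rik on the opposite strand, and the strandedness of the counts is not given by the sources. That transcript held at most 52 counts in a library, against 9712 Ppp1r1b counts in the same library.

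The peptide genes had the same leading library. Penk (ENSMUSG00000045573), the precursor of enkephalins, was at 313, 49.7 and 101 CPM in FAD5x, against 62.6, 49.6 and 44.9 CPM in Control. Penk was 3.10-fold higher in FAD5x replicate 1 than in FAD5x replicate 3, the next highest, while FAD5x replicate 2 lay inside the Control range. Its exons overlap by 233 bases with A830012C17Rik on the opposite strand, which had at most 3 counts in a library. Tac1 (ENSMUSG00000061762), the precursor of substance P, was at 91.9, 10.6 and 15.4 CPM in FAD5x, against 6.11, 9.10 and 15.6 CPM in Control, 5.89-fold higher in FAD5x replicate 1 than in Control replicate 3. Pdyn (ENSMUSG00000027400), the precursor of dynorphins, was at 81.5, 35.8 and 7.63 CPM in FAD5x, against 13.3, 28.8 and 22.6 CPM in Control. FAD5x replicate 1 was 2.28-fold above FAD5x replicate 2, the smallest such step of the 9 genes, and FAD5x replicate 3 had the lowest Pdyn level of all.

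**Figure D1:**
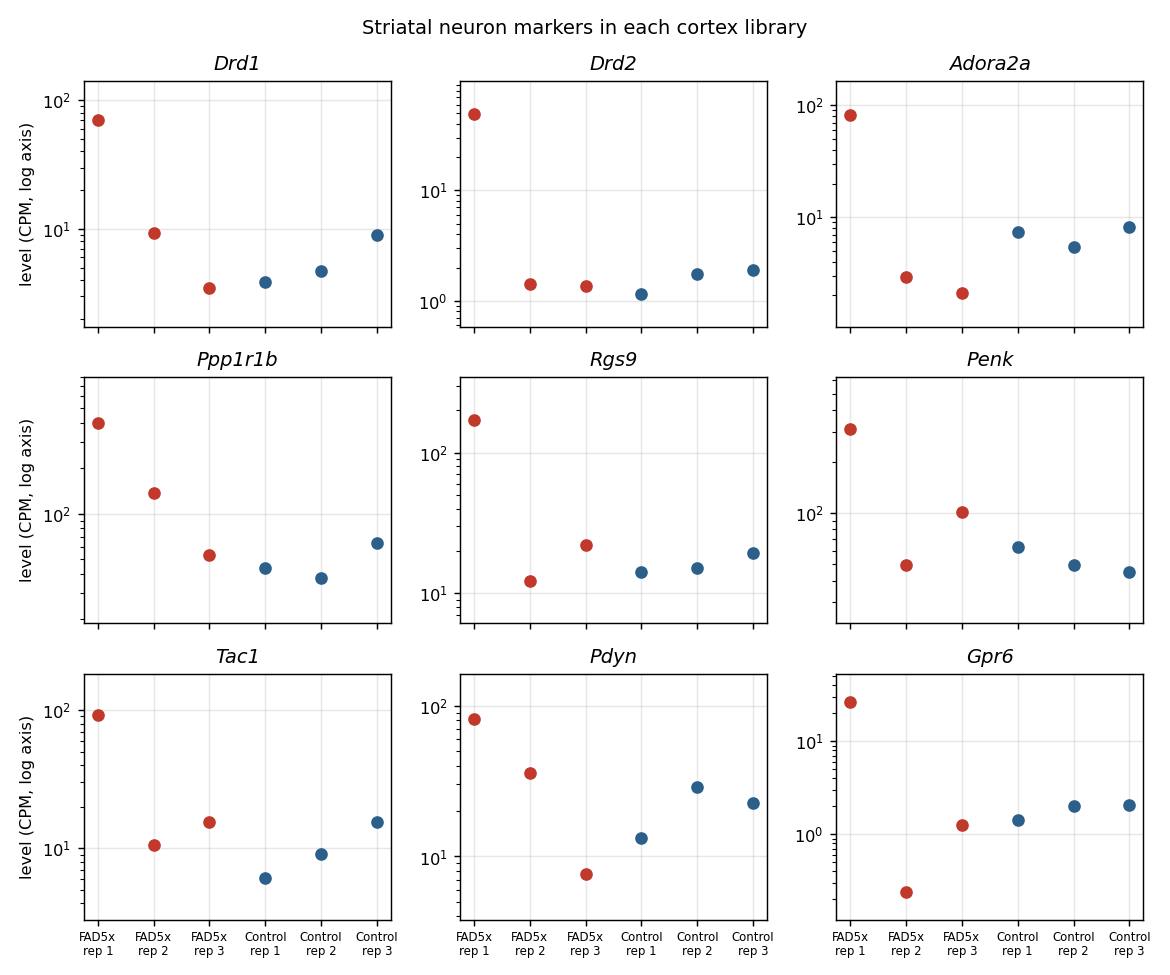
Level of each of the 9 striatal markers in each library, in TMM-scaled CPM on log axes, with FAD5x libraries in red and Control libraries in blue and 1 point per library. FAD5x replicate 1 is the highest library in every panel, from 26.8 CPM for Gpr6 to 400.3 CPM for Ppp1r1b, and the other FAD5x libraries lie on both sides of the Control libraries, as low as 0.242 CPM for Gpr6 in FAD5x replicate 2.

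FAD5x replicate 1 was thus the highest of the 6 libraries for 9 of 9 markers and at least 2-fold above the next highest for 9 of 9. Over all 17074 tested genes it was the highest for 15.9% and at least 2-fold above the next for 0.515%, which is 88 genes. These shares are the background of the description, since the markers were chosen with their levels known. The median step over the next library was 7.63-fold for the markers and 0.80-fold for all tested genes, where a value below 1 means that another library was higher. A step as large as that of Pdyn was found in 60 tested genes, and none had a step larger than that of Drd2. Scaled by library totals alone, the steps ran from 2.51-fold for Pdyn to 26.1-fold for Drd2. Fewer cells of a type and less RNA per cell cannot be told apart in such bulk libraries.

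**Figure D2:**
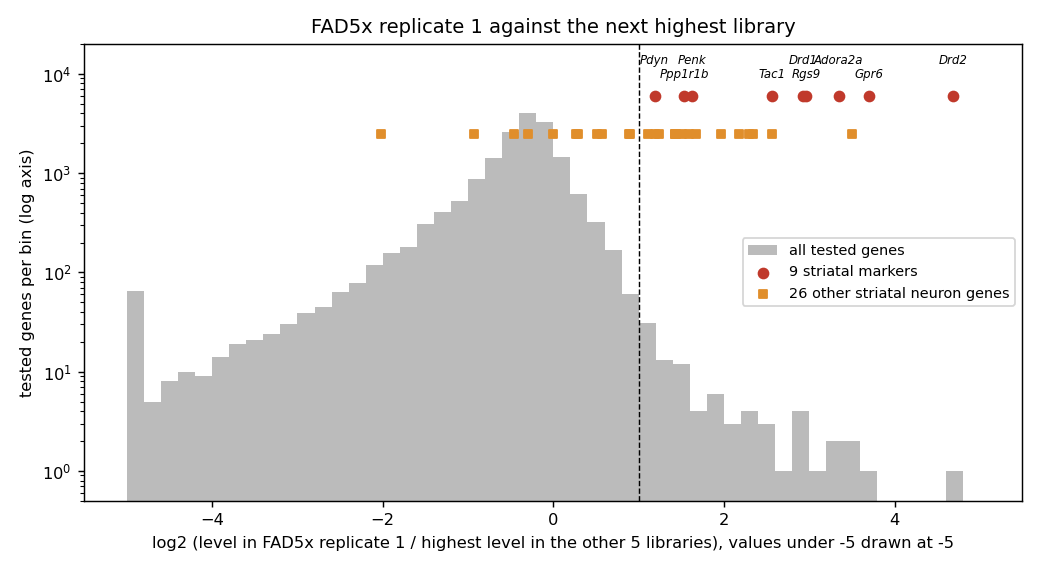
Number of tested genes (grey bars, log axis) by the log2 ratio of the level in FAD5x replicate 1 to the highest level in the other 5 libraries; red points are the 9 striatal markers, orange squares the 26 tested genes of the other striatal list, and their heights carry no value. The dashed line marks a 2-fold step, which 0.515% of tested genes, all 9 markers and 15 of the 26 other genes reached. Both lists were chosen with earlier results of these data known.

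The comparison of FAD5x with Control asked which transcripts differ between the groups. Of the 9 markers 0 passed the test (edgeR quasi-likelihood test, Benjamini-Hochberg adjusted p below 0.05 over all genes), against 3.15% of 17074 tested genes (1.76% higher and 1.39% lower in FAD5x), and nothing is read from this count because the markers were chosen on the same libraries. At an unadjusted p below 0.05 edgeR had 1, Ppp1r1b, against 21.3% of tested genes. At the adjusted threshold limma-voom called 0 of 9 markers, against 2.57% of tested genes. DESeq2 called 0 of the 6 markers to which it gave an adjusted p, against 8.7% of genes, and gave none to Drd2, Adora2a and Gpr6. The FAD5x and Control libraries did not overlap for 0 of 9 markers, against 27.4% of tested genes. The fitted log2 fold changes, FAD5x over Control, were all positive, from 0.95 ± 0.81 (SE, n = 3 per group) for Pdyn to 3.43 ± 1.58 for Drd2, with a median of 2.07 against 0.02 over all tested genes. In each of the 9 markers the SD of the FAD5x libraries exceeded the difference between the group means: Drd1 averaged 27.8 ± 37.2 CPM in FAD5x and 5.86 ± 2.76 CPM in Control (SD, n = 3 each), and Penk 154.5 ± 139 CPM in FAD5x and 52.4 ± 9.21 CPM in Control.

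The group difference rested on FAD5x replicate 1. Without it the median log2 fold change of the markers was 0.08, and 3 of 9 were below 0, against 49.5% of tested genes. Adora2a had a log2 fold change of 2.07 ± 1.43 with all libraries and of -1.47 ± 0.31 without FAD5x replicate 1. Gpr6 had 2.37 ± 1.54 with all libraries and -1.30 ± 0.66 without it, and Drd2 had 3.43 ± 1.58 with all libraries and -0.21 ± 0.42 without it. Drd1, Rgs9 and Pdyn were left at 0.12 ± 0.51, 0.08 ± 0.27 and 0.01 ± 0.64. The highest values without that library were 0.98 ± 0.41 for Ppp1r1b, which was also above all Control libraries in FAD5x replicate 2, 0.52 ± 0.30 for Penk and 0.34 ± 0.39 for Tac1. Without FAD5x replicate 1 again 0 of 9 passed the test, against 1.16% of 17551 tested genes. Without FAD5x replicate 3, where FAD5x replicate 1 is 1 of 2 FAD5x libraries, edgeR called 1 of 9, Ppp1r1b (log2 2.47 ± 0.41), against 3.42% of 17477 tested genes, and 9 of 9 had an unadjusted p below 0.05, against 20.6%. These counts rest on the library whose levels chose the markers and are no support. Of the 88 genes with a 2-fold step in FAD5x replicate 1, 1 gene passed the test of FAD5x against Control with all libraries, and it was Fbxw15, not a marker.

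**Figure D3:**
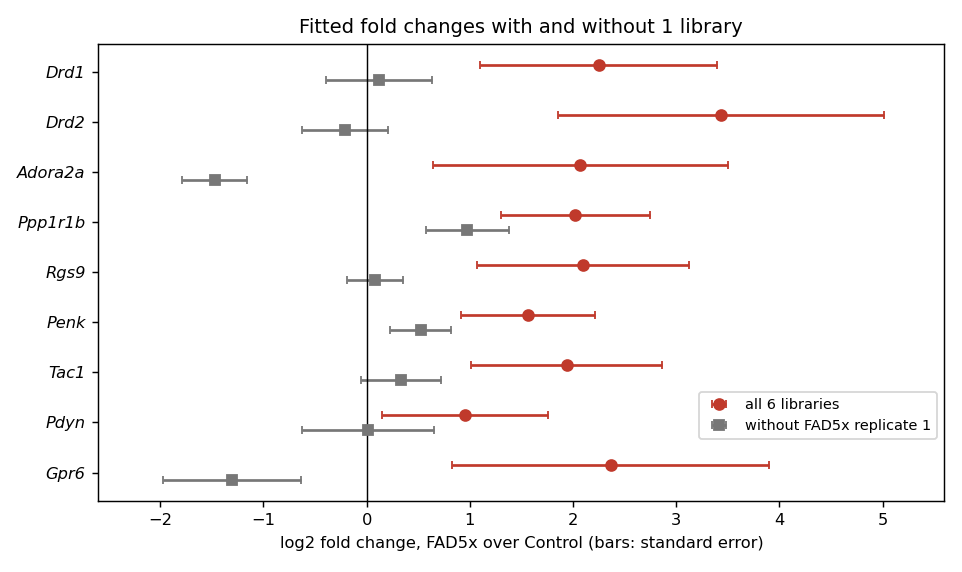
Fitted log2 fold change of each striatal marker, FAD5x over Control, with all 6 libraries (red circles) and without FAD5x replicate 1 (grey squares); bars are standard errors and the line marks no difference. The median over the 9 genes is 2.07 with all libraries and 0.08 without that library, where Adora2a, Gpr6 and Drd2 lie below 0.

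Among the 5 libraries other than FAD5x replicate 1 the markers did not share a common order. The highest of these 5 libraries was FAD5x replicate 2 for Drd1, Ppp1r1b and Pdyn, FAD5x replicate 3 for Rgs9 and Penk, and Control replicate 3 for Drd2, Adora2a, Tac1 and Gpr6, though the counting intervals of the top libraries overlapped for all but Ppp1r1b, Pdyn and Penk. The span from lowest to highest was 1.64-fold for Drd2, 2.25-fold for Penk, 3.68-fold for Ppp1r1b, 4.69-fold for Pdyn and 8.54-fold for Gpr6. FAD5x replicate 2 combined the highest Ppp1r1b and Pdyn levels of the 5 with the lowest Gpr6 and Rgs9 levels. The balance of the dopamine receptors moved as well. Drd1 made up 59.0% of the summed Drd1 and Drd2 counts in FAD5x replicate 1 (exact 95% binomial interval 57.2% to 60.8%), 86.8% in FAD5x replicate 2 and 71.7% in FAD5x replicate 3, and 76.9%, 73.0% and 82.6% in Control replicates 1, 2 and 3. The interval of FAD5x replicate 1 lay below those of the other 5 libraries, the nearest of which, that of FAD5x replicate 3, ran from 61.4% to 80.6%.

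Levels can be compared between genes only per length of transcript. Per kilobase of annotated exons, the CPM level in FAD5x replicate 1 was 191 for Penk and 137 for Ppp1r1b, and then 28.2 for Pdyn, 27.0 for Tac1, 26.9 for Rgs9 and Adora2a, 19.5 for Drd1, 19.2 for Drd2 and 15 for Gpr6. Penk and Ppp1r1b were also the highest per kilobase outside that library, at up to 61.8 and 47.2, followed by Pdyn at up to 12.4. Drd2 reached at most 0.746 and Gpr6 at most 1.16 there. In this description the genes with the lowest level per kilobase in the other 5 libraries, Drd2 and Gpr6, had the largest steps, and the 3 with the highest, Penk, Ppp1r1b and Pdyn, had the smallest. The step is itself a ratio to the highest of those 5 levels.

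Other genes of striatal projection neurons, 31 measured of a list of 32, were high in the same library. Like the lists that follow, this list was chosen with earlier results of these data known. Its counts are therefore a description and no independent support. Of the 26 tested genes FAD5x replicate 1 was highest for 21, against 15.9% of all tested genes. It was at least 2-fold above the next library for 15, against 0.515%. Pde10a, the phosphodiesterase that degrades cyclic nucleotides in these neurons, was at 417, 52.9 and 64.1 CPM in FAD5x, against 89.3, 72.1 and 106.9 CPM in Control. FAD5x replicate 1 was far above the rest, and FAD5x replicates 2 and 3 lay below the Control range. Arpp21, a cAMP-regulated phosphoprotein, and Adcy5, an adenylyl cyclase, had the highest mean levels of the list. Arpp21 was at 488, 283 and 286 CPM in FAD5x, against 322, 350 and 405 CPM in Control, a small step over a high level in every library. Lrrc10b was 11.4-fold above the next library in FAD5x replicate 1, Rarb, a retinoic acid receptor, 5.05-fold, and Scn4b, a sodium channel subunit, 2.29-fold.

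A further 5 genes of that list were too low outside FAD5x replicate 1 to be tested. Six3, a transcription factor of the developing and adult striatum, was at 21.2, 0.145 and 0.104 CPM in FAD5x, against 0, 0.506 and 0.559 CPM in Control. Isl1, a transcription factor of direct-pathway and cholinergic neurons, was at 5.89 CPM in FAD5x replicate 1 and at 0 in FAD5x replicates 2 and 3 and Control replicate 2, where 0 counts allow up to 0.145, 0.157 and 0.169 CPM. Sh3rf2, Drd3 and Ido1 were likewise highest in FAD5x replicate 1, at 13.4, 2.56 and 1.65 CPM. FAD5x replicate 1 was not the highest library for 5 of the 26 tested genes, Sp9, Meis2, Ebf1, Ppp1r1a and Rgs7bp. Sp9 was at 15, 8.58 and 43.7 CPM in FAD5x, against 60.7, 39.8 and 18.9 CPM in Control, and Meis2 at 195, 125 and 257 CPM in FAD5x, against 371, 266 and 181 CPM in Control. Both are also known from interneurons of the olfactory bulb. Ebf1, a transcription factor of direct-pathway neurons, was at 3.87, 2.96 and 3.45 CPM in FAD5x, against 4.79, 5.34 and 4.30 CPM in Control, groups that did not overlap. Such a separation was found for 5 of the 26 tested genes, against 27.4% of all tested genes. The others were Pde1b, Chrm4, Strip2 and Zfp503, all higher in FAD5x. Ppp1r1a was at 70.1, 66.2 and 70.2 CPM in FAD5x, against 53.0, 67.9 and 59.8 CPM in Control. Rgs7bp was at 250.5, 309 and 149 CPM in FAD5x, against 202, 227 and 288 CPM in Control. In the test of FAD5x against Control 0 of 26 genes passed, against 3.15% of all tested genes (edgeR, with 5 at an unadjusted p below 0.05, all higher, against 21.3%). By limma-voom 0 passed, against 2.57%, and by DESeq2 2, Strip2 and Zfp503, against 8.7%. The median log2 fold change of the 26 genes was 0.88 with all libraries and -0.27 without FAD5x replicate 1, against 0.02 and 0.01 over all tested genes.

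The list of cholinergic interneurons, the giant cells of the striatum, was near 0 in 5 libraries and higher in FAD5x replicate 1. The summed level of its 6 genes was 42.2, 4.41 and 3.66 CPM in FAD5x, against 2.15, 2.7 and 3.86 CPM in Control. Chat, the enzyme that makes acetylcholine, was at 4.95, 0.0969 and 0.209 CPM in FAD5x, against 0.165, 0.449 and 0.727 CPM in Control. Slc5a7, the choline transporter, was at 10.5, 0.727 and 0.627 CPM in FAD5x, against 0.440, 0.337 and 0.95 CPM in Control, 11.1-fold above the next library in FAD5x replicate 1. All 6 genes were highest in FAD5x replicate 1, against 15.9% of all tested genes. This count too is a description, since the list was chosen with earlier results known. Of the 2 tested genes, Slc5a7 and Ecel1, 0 passed by edgeR, against 3.15% of all tested genes, and 0 by limma-voom, against 2.57%. Both had an unadjusted p below 0.05 by edgeR, against 21.3%. DESeq2 called Ecel1, against 8.7% of genes, and gave no adjusted p to Slc5a7.

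Genes of the signalling pathways around the markers were called at about the share of all genes. Of 30 measured genes of cAMP signalling 0 passed the test, against 3.15%, and 5 had an unadjusted p below 0.05, against 21.3% (edgeR, 3 higher and 2 lower). By limma-voom 0 passed, against 2.57%, and by DESeq2 1, Creb1, which was lower, against 8.7%. The median log2 fold change of the 30 genes was 0.08. At least 2-fold above the next library in FAD5x replicate 1 were 4 of the 30, against 0.515% of all tested genes. All 4 are known for high striatal expression, and Adcy5, Pde1b and Pde10a were already counted in the list of other striatal neuron genes. Adcy5, the adenylyl cyclase of projection neurons, was at 551, 175 and 151 CPM in FAD5x, against 150, 205 and 195 CPM in Control. Pde1b was 2.72-fold, Pde10a 3.90-fold and Pde7b 2.06-fold above the next library. Ppp3ca, the calcineurin catalytic subunit and the highest of the list, had no such step, at 1103, 1480 and 745 CPM in FAD5x, against 696, 771 and 1039 CPM in Control. Prkaca, a catalytic subunit of protein kinase A, was at 170, 207 and 172 CPM in FAD5x, against 164, 159 and 181 CPM in Control. A list of other receptors for the peptides, adenosine and dopamine, without the markers Drd1, Drd2 and Adora2a, had 9 tested genes. Drd3 and Drd4 were too low to be tested. Drd3 was at 2.56 CPM in FAD5x replicate 1 and at most 0.165 CPM elsewhere, and Drd4 was highest in FAD5x replicate 2, at 2.03 CPM. Of the 9 tested receptors 0 passed by edgeR, against 3.15% of all tested genes, and 0 had an unadjusted p below 0.05, against 21.3%. DESeq2 called 0, against 8.7%, and limma-voom 0, against 2.57%. A 2-fold step in FAD5x replicate 1 was found in 0 of these 9, against 0.515%. Adora1, the adenosine receptor that lowers cAMP and the highest of these, was at 143, 215 and 79.6 CPM in FAD5x, against 102, 113 and 169 CPM in Control. Oprk1, the receptor for dynorphins, was at 19.8, 4.85 and 1.99 CPM in FAD5x, against 3.14, 3.71 and 12.1 CPM in Control.

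Lists of other cell types and regions were summed to show what else differed between the libraries. The 9 striatal markers summed to 1287, 260 and 207 CPM in FAD5x, against 154, 154 and 188 CPM in Control. Cortical excitatory neuron genes, 20 of 20 measured, summed to 2234, 3778 and 2146 CPM in FAD5x, against 2287, 2597 and 3193 CPM in Control. The sum of FAD5x replicate 1 lay inside the range of the others, but Slc17a7 was its largest part, at 1047 CPM. FAD5x replicate 1 was the lowest library for Neurod1, Emx1, Cux1, Cux2, Rasgrf2, Lamp5 and Etv1, and the highest for 2 of the 20 genes. In this list 1 gene of 20 fell, against 1.39% of all tested genes. It was Etv1, a transcription factor of deep cortical layers and of the olfactory bulb, at 47.4, 52.8 and 50.1 CPM in FAD5x, against 113, 77.5 and 77.6 CPM in Control (log2 -0.84 ± 0.17 (SE), edgeR adjusted p = 0.0373). A list of 16 olfactory bulb genes that includes Etv1, chosen after values were seen, summed to 417, 365 and 1189 CPM in FAD5x, against 2018, 1222 and 864 CPM in Control, and its part in the fall was not tested. The interneuron list, 16 of 16 measured, summed to 1424, 1528 and 1887 CPM in FAD5x, against 2344, 1820 and 1727 CPM in Control, and was lowest in FAD5x replicate 1. Here 1 gene of 16 fell, against 1.39% of all tested genes. It was Reln, the matrix protein reelin (log2 -1.24 ± 0.24, edgeR adjusted p = 0.0365), at 69.0, 57.5 and 103 CPM in FAD5x, against 225, 162 and 154 CPM in Control. No cause of its fall was tested. Its general GABA genes Gad1 and Gad2, which projection neurons also express, differed. Gad2 was at 283, 162 and 174 CPM in FAD5x, against 313, 209 and 199.96 CPM in Control. Gad1, lowest in FAD5x replicate 1, was at 321, 343 and 662 CPM in FAD5x, against 834, 511 and 432 CPM in Control. Calb2, which is also on the olfactory bulb list, was at 9.03, 17.1 and 146 CPM in FAD5x, against 255, 156 and 98.7 CPM in Control.

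Oligodendrocyte genes, 10 of 10 measured, were also high in FAD5x replicate 1: they summed to 7921, 4112 and 5300 CPM in FAD5x, against 2963, 3453 and 4390 CPM in Control. In FAD5x replicate 1 9 of 10 were highest, against 15.9% of all tested genes. Of the 10 genes 2 myelin genes rose in FAD5x cortex, against 1.76% of all tested genes. DESeq2 called 3, against 8.7% in either direction, and limma-voom 1, Ermn, against 2.57%. By edgeR Ermn rose by 1.57 ± 0.25 and Mobp by 1.09 ± 0.24 on the log2 scale (SE, edgeR adjusted p = 0.0207 and 0.0474). Microglial genes, 8 of 8 measured, summed to 852, 414 and 530 CPM in FAD5x, against 266, 406 and 271 CPM in Control. All 8 were highest in FAD5x replicate 1, against 15.9% of all tested genes. Of the 8 genes 1 rose by edgeR, against 1.76%. It was the complement subunit C1qa, by 2.24 ± 0.26 on the log2 scale (edgeR adjusted p = 0.00726). DESeq2 called 3, against 8.7% in either direction, and limma-voom 1, against 2.57%. With each of the 6 libraries left out in turn, C1qa passed in 6 fits, Ermn in 4, Mobp and Reln in 2 and Etv1 in 1. Without FAD5x replicate 1 the adjusted p was 0.0448 for Ermn, 0.107 for Mobp, 0.0999 for Reln and 0.101 for Etv1. Astrocyte genes summed to 6971, 4794 and 4236 CPM in FAD5x, against 4578, 6516 and 4855 CPM in Control, so that Control replicate 2 came close. Slc1a2, at 1622 to 4018 CPM, was the largest part of that sum. Gfap differed more, at 1508, 129 and 914 CPM in FAD5x, against 193, 169 and 119 CPM in Control. Its log2 fold change was 2.41 ± 0.81 (edgeR adjusted p = 0.168). By edgeR 0 of the 8 astrocyte genes passed, against 3.15% of all tested genes. DESeq2 called 1, S100b, which was higher, against 8.7%. The steps of the summed oligodendrocyte, microglial and astrocyte genes over the next library were 1.49-fold, 1.61-fold and 1.07-fold. These sums had smaller steps than the 4.95-fold step of the summed markers, and the part of these cell types in the result was not tested. The hippocampal list, 10 of 10 measured, summed to 213, 178 and 128 CPM in FAD5x, against 156, 172 and 132 CPM in Control. Thalamic genes summed to 129, 119 and 96.0 CPM in FAD5x, against 146, 141 and 153 CPM in Control. The thalamic transcription factor Gbx2 was at or near 0 in all libraries, but other members were not. Rora was at 46.7, 53.6 and 33.1 CPM in FAD5x, against 71.0, 62.6 and 74.1 CPM in Control. Prkcd was at 21.9, 13.0 and 13.4 CPM in FAD5x, against 7.93, 12.6 and 8.16 CPM in Control. FAD5x replicate 1 was highest for 2 of the 8 tested thalamic genes, against 15.9% of all tested genes. Endothelial genes summed to 233, 276 and 197 CPM in FAD5x, against 303, 316 and 236 CPM in Control. Choroid plexus genes summed to 14.1, 7.07 and 14.8 CPM in FAD5x, against 24.3, 19.6 and 12.8 CPM in Control. The septal and hypothalamic list summed to 68.4, 36.2 and 97.9 CPM in FAD5x, against 195, 132 and 84.2 CPM in Control. Its members differed in level. Hcrt, Pmch, Avp and Oxt were below 1 CPM in every library. Zic1 was at 36.6, 7.66 and 36.3 CPM in FAD5x, against 102, 65.1 and 39.9 CPM in Control. Nkx2-1, too low to be tested, was at 1.77 CPM in FAD5x replicate 1, against at most 0.470 CPM in the other libraries. FAD5x replicate 1 was highest for 1 of the 6 tested genes of that list. Midbrain dopamine neuron genes summed to 15.4, 20.6 and 72.6 CPM in FAD5x, against 140, 59.2 and 47.9 CPM in Control. Most of the sum in the higher libraries was Th, which makes dopamine also in the olfactory bulb, at up to 58.5 CPM in FAD5x and 117 CPM in Control, while Ddc was at 7.42 CPM in FAD5x replicate 1, against at most 7.27 CPM in the other libraries.

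**Figure D4:**
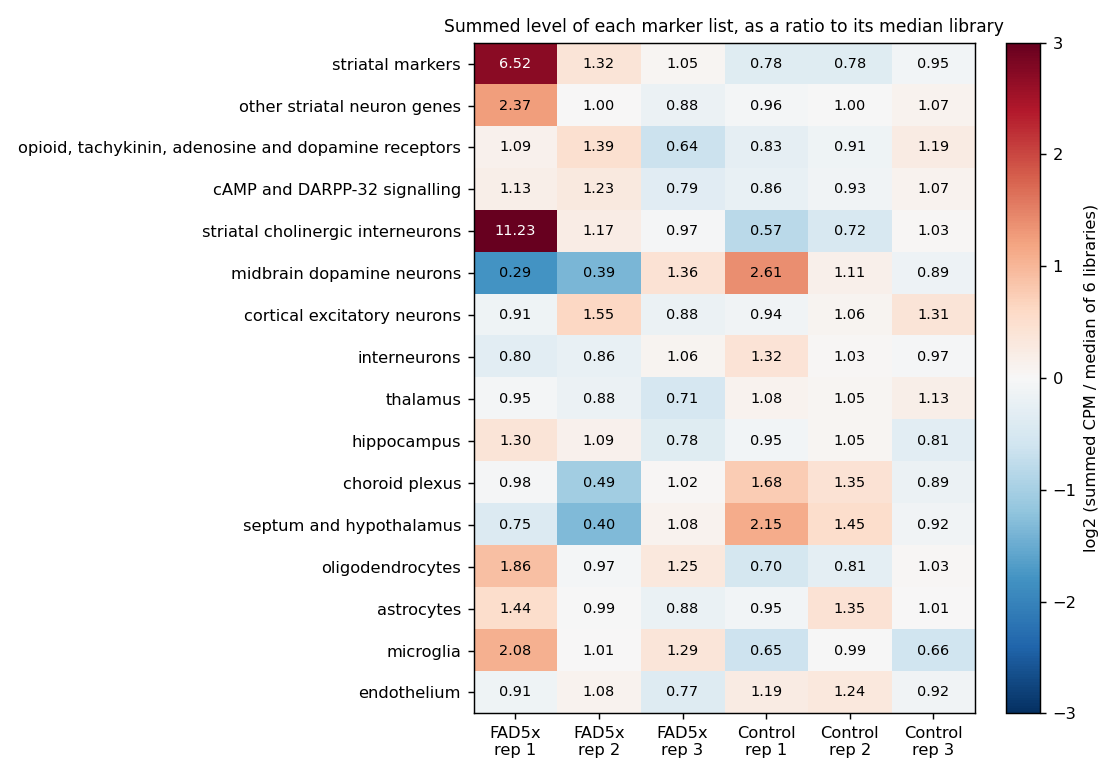
Summed CPM of each marker list in each library, divided by the median of the 6 libraries (printed value) and coloured by the log2 of that ratio, with FAD5x libraries on the left and Control libraries on the right. FAD5x replicate 1 stands at 6.52 for the striatal markers, 11.2 for striatal cholinergic interneurons and 2.37 for other striatal neuron genes, and at 0.91 for cortical excitatory neurons.

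The genes whose pattern was most like that of the markers were ranked by Pearson's r, over the 6 libraries, with the mean profile of the 9 markers on the log2 scale. Among 11301 protein-coding genes the 10 most alike were Rarb (r = 0.99), Dach1 (0.99), Adcy5, Chpt1, Gpr83, Lxn, Dguok, Rem2, Bcr and Pde1b (0.97). Rarb, Adcy5 and Pde1b belong to the list of other striatal neuron genes, which held 23 of the 11301 genes compared. An r of at least 0.95 was found for 5 of those 23 genes and for 21 of all 11301. In this ranking 1 library sets most of r, as the mean profile was 2.76 log2 units above its average in FAD5x replicate 1 and between -0.75 and -0.22 in the other 5 libraries. Their size differed: Rarb was 5.05-fold and Dach1, a transcription factor, 3.56-fold above the next library in FAD5x replicate 1, but Chpt1 only 1.30-fold and Dguok 1.22-fold. The 5 least alike were Prdx2, a peroxide-reducing enzyme (r = -0.98), Ei24, Dhx37, Mphosph6 and Adcyap1 (-0.95). Adcyap1, the precursor of the neuropeptide PACAP, was at 6.14, 15 and 18.9 CPM in FAD5x, against 19.3, 20.1 and 20.5 CPM in Control.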

How the data were processed

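The authors deposited raw counts per Ensembl gene for 6 cortex libraries. The submitters' processing notes list STAR 2.7.11b, edgeR 3.38.4, cutadapt, featureCounts, limma and build GRCm39. Strandedness and the treatment of reads with several matches are not given in the sources used here. Of 47729 lines 1 was dropped because it holds a non-numeric cell. Columns were matched to libraries through names in the labels and grouped by their treatment field. RNA came from TRIzol and column extraction, per the labels' protocols. Symbols, exon lengths and overlaps came from GENCODE M21 on an earlier build, by identifier, for 47309 identifiers with a symbol.

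The test was that of edgeR 4.0.16, run in R 4.3.3 (filterByExpr, TMM, robust quasi-likelihood fit and F-test, two-sided, FAD5x against Control, no covariates, Benjamini-Hochberg adjusted p below 0.05), and the fitting code was checked on simulated counts. CPM were computed from the deposited counts, and log2 profiles used a pseudocount of 0.5. Alternatives were DESeq2 1.42.0, limma-voom (limma 3.58.1), other scalings, no filter on low counts, a replicate block and leaving out each library. The members and lists were chosen with earlier results of these data known. Beyond the 9 members, the genes named were called genes, the highest or largest steps of each list, and those most and least alike in pattern (mean of at least 5 CPM); examples from lists with no call were chosen after their values were seen, as were the promoter motifs. The replicate numbers were not taken as pairs in the main test.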

Additional observations from a re-analysis of the deposited data

How the results depend on the processing

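The number of genes called in FAD5x cortex, 537, was 1485 by DESeq2, 1063 with no filter on low counts and 72 with a replicate block, and ran from 81 to 989 with single libraries left out. The number of striatal markers called, 0, ran from 0 to 1 with single libraries left out, the 1 being Ppp1r1b without FAD5x replicate 3. That of other striatal neuron genes, 0, was 2 by DESeq2 and ran from 0 to 2 with single libraries left out, the 2 being Scn4b and Zfp503 without FAD5x replicate 3. The median log2 fold change of the markers, 2.07, was 2.05 to 2.08 under the other scalings, DESeq2 and no filter, 1.19 by limma-voom and 1.17 with the replicate block, and ran from 0.08 without FAD5x replicate 1 to 2.59 without FAD5x replicate 2. It stayed above 0 in all of these.

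No pairing of libraries by replicate number is known from the labels, so the block has no stated basis in the design. It called 0 markers. Same-numbered libraries deviated from their group means with correlations of -0.05, -0.10 and -0.35. Values for other pairs are not given here, so these correlations do not settle whether libraries were paired. Of 63 single marker values under alternatives with all libraries 63 moved by less than 1 SD of the FAD5x libraries, an SD that FAD5x replicate 1 widens, and without that library 5 of 9 did. Depth limits Drd2 and Gpr6, with as few as 21 and 5 counts in a library.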

Other observations

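A list of olfactory bulb genes, chosen after values were seen because Sp9, Meis2 and Th ran against the striatal markers, separated the libraries in another way. Its 16 genes summed to 417, 365 and 1189 CPM in FAD5x replicates 1, 2 and 3 and to 2018, 1222 and 864 CPM in Control replicates 1, 2 and 3. Eomes, a transcription factor of olfactory bulb projection neurons, was at 0.495, 1.89 and 25.8 CPM in FAD5x, against 64.7, 33.2 and 22.3 CPM in Control. Cdhr1, a cadherin of the same neurons, was at 9.15, 9.06 and 121 CPM in FAD5x, against 249, 141 and 99.95 CPM in Control, and Doc2g at 2.27, 2.37 and 54.5 CPM in FAD5x, against 69.3, 39.6 and 24.9 CPM in Control. FAD5x replicates 1 and 2 were low for these genes, while FAD5x replicate 3 lay inside the Control range. Th, which makes dopamine in bulb interneurons, was at 3.4, 11.5 and 58.5 CPM in FAD5x, against 117, 47.4 and 34.0 CPM in Control. The library high in striatal markers was thus among the 2 lowest in this list, and no cause was tested.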
